A study of Homo sapiens with 2 samples.

Results

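Annexins are a family of proteins that bind negatively charged phospholipids when calcium is present, and so move from the cytosol to membranes when calcium rises. A conserved core binds the membrane, and a variable N-terminal tail binds partners, among them small S100 proteins. In epithelial and carcinoma cells annexins are known for roles in membrane repair, vesicle traffic, actin attachment and plasminogen activation at the cell surface. Here 10 annexin genes (ANXA1 to ANXA7, ANXA9, ANXA10 and ANXA11) were examined through every probe set whose annotation gave 1 gene symbol that was one of these names. The naming rule itself reads no intensity, though the family was picked with earlier results of these data known, and it found 20 of the 54675 probe sets on the array.

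The samples were RNA from a stable Panc1/syk-wt population, transfected with wild-type syk, and from a stable Panc1/mock population, transfected with the vector alone. Panc1 is a human pancreatic ductal adenocarcinoma line, SYK is a non-receptor tyrosine kinase, and both populations were kept in hygromycin selection with no other treatment. Panc1/mock is called drug-resistant in the title of the series. With 1 array for each population and no replicate, a value is a single measurement of 1 population, with no test, p-value or error between cultures. Population, RNA preparation and array cannot be told apart, nor can less RNA per cell and fewer cells with the RNA. The design asks how gene expression changes once syk is expressed again in these cells.

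Levels are log2 intensities after RMA (robust multi-array average), and a difference is Panc1/syk-wt minus Panc1/mock on that scale, where 1 is 2-fold. The highest value of the 27 bacterial control probe sets, 4.77, served as the floor below which a level was read as background. The brightest of the 4 SYK probe sets read 4.73 in Panc1/syk-wt and 4.27 in Panc1/mock, both under that floor, so the directions below rest on the labels. Probe sets outside the introduced cDNA would not detect it, and their position was not analysed here. The ductal keratins KRT7, KRT8, KRT18 and KRT19 were all above the floor on both arrays, whereas the endocrine, acinar, leukocyte and endothelial markers examined (0 of 11) were not. The keratins differed as well, by -1.45 for KRT19, -0.76 for KRT8, -0.49 for KRT7 and -0.23 for KRT18, and their part in the annexin differences was not tested. Of the fibroblast markers DCN, LUM and COL1A1, DCN and LUM were under the floor and COL1A1 was above it, at a difference of -1.09. The ACTB control probe sets had a 3′ minus 5′ signal difference of 2.37 in Panc1/syk-wt and 1.95 in Panc1/mock, and the part of this gap in any annexin difference was not tested.

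Most annexins that gave signal were lower in Panc1/syk-wt, by sizes that ranged from 3.96-fold to almost nothing, and ANXA5 was the exception. ANXA6, ANXA11 and ANXA4 had the largest differences, ANXA1 and ANXA7 smaller ones, and the 3 bright ANXA2 probe sets differed by less than 0.1. ANXA3, ANXA9 and ANXA10 were at background on both arrays. Over the 14 annexin probe sets past the filter (mean of both arrays at or above 4.25, the 50th percentile of all probe sets), 3 were lower by 2-fold or more (2 with both arrays floored at 4.77) and 0 were higher by that much. Among all 27339 probe sets past that filter, 3.39% were lower and 3.07% higher to that degree.

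**Figure D1:**
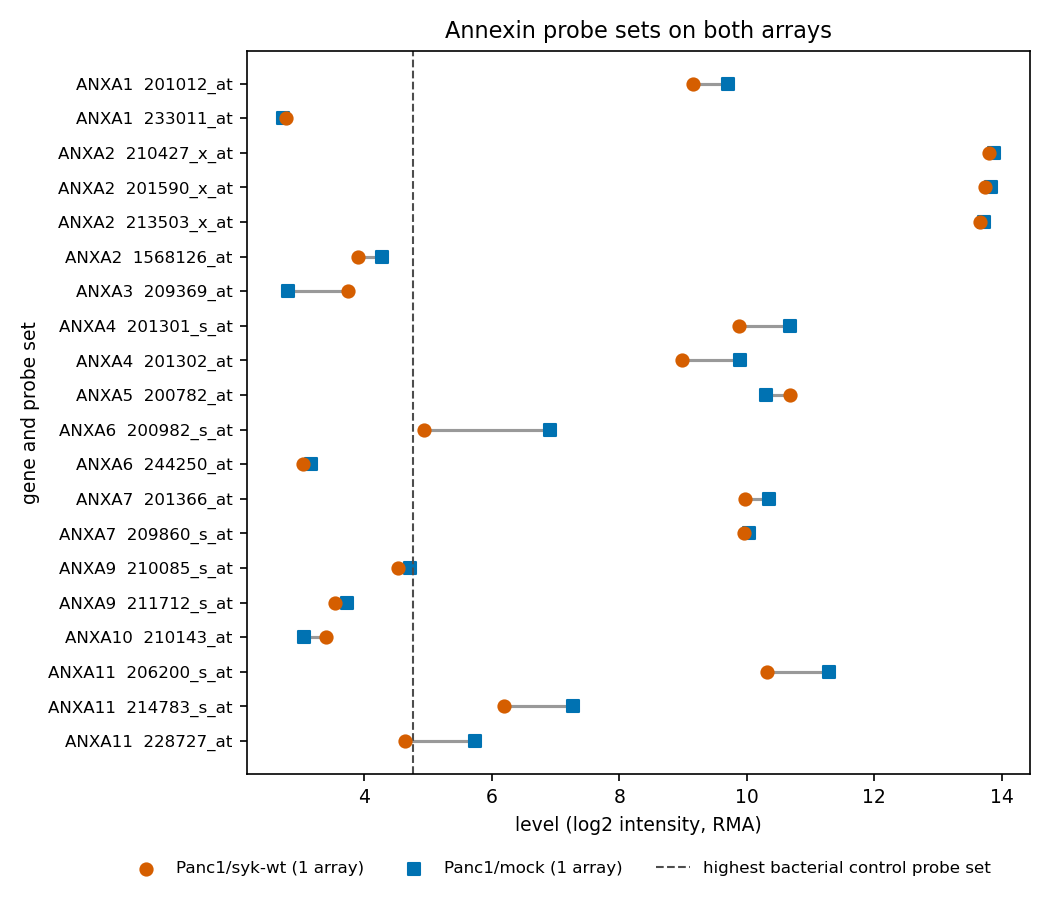
Level of each annexin probe set as log2 intensity, with Panc1/syk-wt as orange circles and Panc1/mock as blue squares (1 array each); the dashed line is the highest bacterial control, 4.77. ANXA6, ANXA11, ANXA4 and ANXA1 have their brighter probe sets left of mock in Panc1/syk-wt, ANXA5 lies to the right, and the probe sets of ANXA3, ANXA9 and ANXA10 lie left of the dashed line.

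ANXA6, an annexin with the core in tandem that acts as a scaffold for protein kinase C alpha and the Ras inhibitor p120GAP at the plasma membrane, had the largest difference of the family. Its probe set 200982_s_at read 4.93 in Panc1/syk-wt and 6.92 in Panc1/mock, a log2 difference of -1.99, or 3.96-fold lower. The Panc1/syk-wt value lay just above the floor of 4.77. As a description, 0.663% of the 12814 genes past the filter had a difference as low or lower. The other ANXA6 probe set, 244250_at, read 3.04 and 3.16, below the floor on both arrays, and gave no second reading.

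ANXA11, which binds the calcium sensor PDCD6 and the S100 protein S100A6 and is known to link RNA granules to lysosomes, was lower by close to 2-fold in each of its 3 probe sets. The brightest, 206200_s_at, read 10.3 in Panc1/syk-wt and 11.3 in Panc1/mock, a difference of -0.98 that falls just short of 2-fold. Probe set 214783_s_at read 6.20 in Panc1/syk-wt and 7.28 in Panc1/mock, a difference of -1.08. The third, 228727_at, read 4.64 in Panc1/syk-wt and 5.74 in Panc1/mock. Because its Panc1/syk-wt value lay under the floor, its measured difference of -1.11 is given as at least 1.97-fold lower. The 3 differences had an SD of 0.068, against a pooled SD of 0.35 between probe sets of 1 gene over the 6028 genes with several past the filter. That SD is over probe sets on the same arrays and holds no variation between cultures.

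ANXA4, an annexin abundant in secretory epithelia, was lower by less than 2-fold in both of its probe sets. Probe set 201301_s_at read 9.87 in Panc1/syk-wt and 10.7 in Panc1/mock, a difference of -0.80. Probe set 201302_at read 8.99 in Panc1/syk-wt and 9.90 in Panc1/mock, a difference of -0.91. Both probe sets were far above the floor on both arrays, and they differed from each other by 0.11, less than the pooled SD between probe sets.

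ANXA1, once named lipocortin for its effect on phospholipase A2 and a ligand of formyl peptide receptors, was 1.47-fold lower. Its probe set 201012_at read 9.15 in Panc1/syk-wt and 9.71 in Panc1/mock, a difference of -0.56, and the second ANXA1 probe set, 233011_at, was at background (2.77 and 2.72). ANXA7, also called synexin, which binds the calcium proteins sorcin and PDCD6, was read by 2 probe sets. The difference was -0.38 in 201366_at, at 9.98 in Panc1/syk-wt and 10.4 in Panc1/mock. It was -0.08 in 209860_s_at, at 9.95 in Panc1/syk-wt and 10.03 in Panc1/mock. The 2 ANXA7 differences lay 0.30 apart, less than the pooled SD of 0.35 between probe sets, and the smaller of them is close to no difference.

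ANXA5, best known as the phosphatidylserine-binding protein used to stain apoptotic cells, had the only higher reading among the 13 annexin probe sets above the floor on at least 1 array. Its single probe set read 10.7 in Panc1/syk-wt and 10.3 in Panc1/mock, a difference of 0.37 (1.30-fold). That is about the pooled SD between probe sets of 1 gene, and 21.9% of all genes past the filter were as high or higher. Genes as low or lower made up 3.83% for ANXA11, 6.07% for ANXA4, 11.2% for ANXA1, 18.8% for ANXA7 and 39.9% for ANXA2.

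ANXA2, which forms a complex with S100A10 that binds plasminogen and tissue plasminogen activator, showed almost the same reading on both arrays. The 3 bright probe sets differed by -0.09 (210427_x_at, 13.8 in Panc1/syk-wt and 13.9 in Panc1/mock), -0.09 (201590_x_at, 13.7 and 13.8) and -0.06 (213503_x_at, 13.7 and 13.7). The highest value on either array was 14.6, so these readings lay near the top of the scale, and whether saturation narrowed the differences was not tested. All 3 carry the suffix that marks probes shared with other transcripts, and ANXA2 has processed pseudogenes. The probe sets annotated to these, named here after their values were seen, differed by -0.12 (ANXA2P2), -0.46 (ANXA2P3) and -0.55 (ANXA2P1, 4.31 in Panc1/syk-wt and 4.86 in Panc1/mock). A probe set annotated to both SNU13 and ANXA2 ran the other way, at 11.2 in Panc1/syk-wt and 10.7 in Panc1/mock, and was not counted because it names 2 genes. The last ANXA2 probe set, 1568126_at, was under the floor (3.90 and 4.27).

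The remaining members gave no usable fold. ANXA3 read 3.75 in Panc1/syk-wt and 2.80 in Panc1/mock, a measured difference of 0.95 that lay wholly below the floor. ANXA9, whose core is reported to lack the usual calcium-binding residues, read 4.53 and 3.54 in Panc1/syk-wt, against 4.71 and 3.73 in Panc1/mock. ANXA10, known from gastric epithelium, read 3.40 in Panc1/syk-wt and 3.05 in Panc1/mock. The 2 probe sets shared by ANXA8 and its copy ANXA8L1 name both genes and were not members, and they too were under the floor on both arrays.

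**Figure D2:**
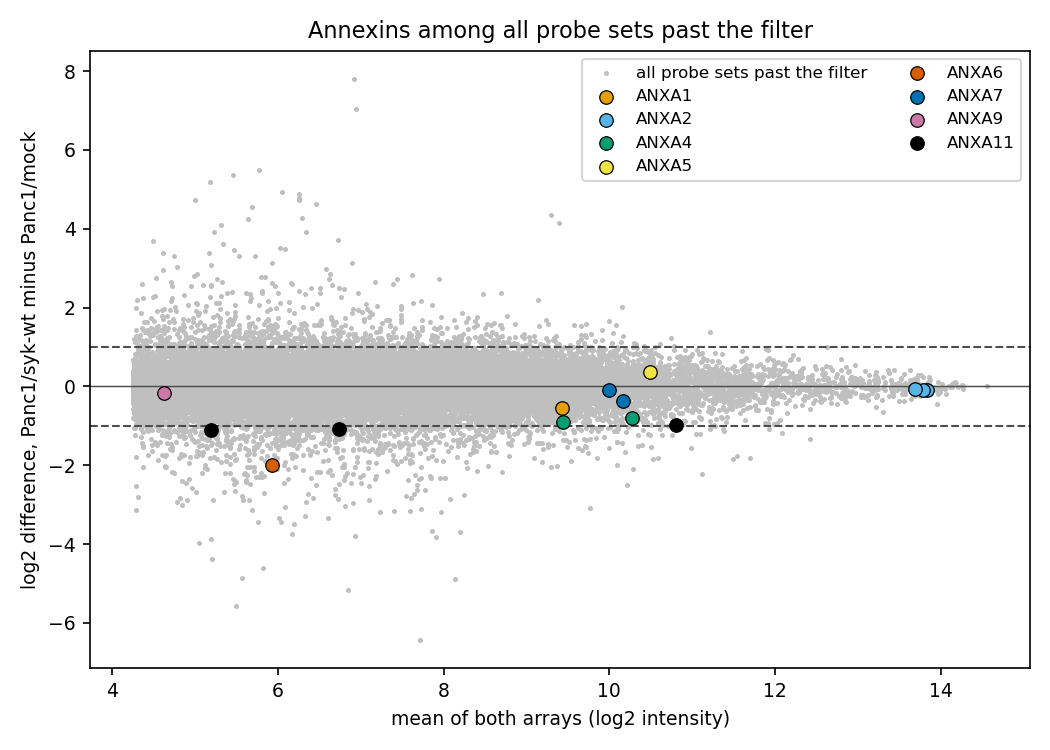
Log2 difference (Panc1/syk-wt minus Panc1/mock) against the mean of both arrays in log2 intensity, for the 27339 probe sets past the filter in grey and the 14 annexin probe sets among them in colour; dashed lines mark 2-fold. ANXA6 and 2 ANXA11 probe sets lie below the lower line, ANXA2 lies near 0 at the bright end, and ANXA5 is the only annexin above 0.

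Taking each gene by its brightest probe set, 8 of the 10 annexins passed the filter, and 1 of these 8 (ANXA6) was lower by 2-fold or more while 0 were higher by as much. Over all 12814 genes past the filter 3.65% were lower and 3.61% higher by that much. At 1.5-fold, 3 of the 8 were lower (ANXA6, ANXA11 and ANXA4) and 0 higher, where 10.5% of all genes were lower and 12.2% higher. The median difference of the 8 was -0.47, beside 0.01 over all genes, and 7 of the 8 were below 0, beside 47.8% of all genes. Those 7 include ANXA9, under the floor on both arrays, and ANXA2 at -0.09. With no filter, 16 of the 20 annexin probe sets were below 0 and their median was -0.19, beside 46.3% and a median of 0 over all 54675. Of the 6 annexin probe sets that the filter left out, 3 were below 0, and all 6 were under the floor on both arrays.

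The RefSeq sequences upstream of the annexin genes are shown for the 3 genes lower by at least 1.5-fold and for ANXA5, the one read higher, so that their composition can be set side by side. Annexin genes differ in promoter type, from CpG-rich starts to starts with a TATA box and few CpG. The 4 sequences are the 250 bases before an annotated start in GRCh38.p14, written 5′ to 3′ on the strand of the gene. For genes with several starts the one with the most CpG is given, and which start Panc1 cells use was not analysed here. Capitals mark the GC box, GGGCGG or its complement CCGCCC, which can overlap itself.
ANXA6 (chr5:151157780-151158029, minus strand): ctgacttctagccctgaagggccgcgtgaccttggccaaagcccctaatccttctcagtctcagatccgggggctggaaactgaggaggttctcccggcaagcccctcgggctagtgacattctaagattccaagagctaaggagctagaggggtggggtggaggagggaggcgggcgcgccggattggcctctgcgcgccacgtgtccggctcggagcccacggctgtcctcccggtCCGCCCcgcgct
ANXA11 (chr10:80205538-80205787, minus strand): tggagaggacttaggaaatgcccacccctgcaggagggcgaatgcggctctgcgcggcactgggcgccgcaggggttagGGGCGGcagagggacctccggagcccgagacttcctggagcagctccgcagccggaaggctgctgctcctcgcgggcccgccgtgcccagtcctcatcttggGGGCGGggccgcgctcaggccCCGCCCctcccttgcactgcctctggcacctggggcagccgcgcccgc
ANXA4 (chr2:69643558-69643807, plus strand): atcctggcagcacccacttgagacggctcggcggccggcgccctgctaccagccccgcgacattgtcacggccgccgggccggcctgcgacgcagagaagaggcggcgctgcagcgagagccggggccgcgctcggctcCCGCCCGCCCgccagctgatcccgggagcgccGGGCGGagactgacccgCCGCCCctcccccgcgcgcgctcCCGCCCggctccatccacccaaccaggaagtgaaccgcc
ANXA5 (chr4:121696981-121697230, minus strand): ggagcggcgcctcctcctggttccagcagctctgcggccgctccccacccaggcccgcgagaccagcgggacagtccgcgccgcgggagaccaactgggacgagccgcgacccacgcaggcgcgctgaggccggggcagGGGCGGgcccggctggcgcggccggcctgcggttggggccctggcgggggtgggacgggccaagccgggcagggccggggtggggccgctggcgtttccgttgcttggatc

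The printed ANXA6 sequence holds 19 CpG and 1 GC box, that of ANXA11 22 CpG and 3 GC boxes, that of ANXA4 36 CpG and 5 GC boxes, and that of ANXA5 31 CpG and 1 GC box. The median over 34796 upstream windows of the same length was 11 CpG, but those were not picked for CpG as the printed ones were. The windows not printed held 10 CpG for ANXA6, 9 and 5 for ANXA11, and 21 for ANXA4. In the printed windows ANXA6, the annexin with the largest difference, and ANXA5, the one read higher, hold the same number of GC boxes. The other ANXA6 window holds 0. Over the 14 windows of the 10 annexin genes, 7 hold a GC box (50%, beside 42.6% of all windows), spread over 6 genes. The letters TATAAA were found on either strand in 4 of these 14 windows, 1 each for ANXA1, ANXA2, ANXA10 and ANXA11, and in 10.8% of all windows. The ANXA11 window that holds them is not the one printed. These counts describe letters in the windows and say nothing of what binds there.

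Annexins lie at separate sites in the genome, and the genes beside them are described for the 3 lower by at least 1.5-fold and for ANXA5. Over all genes past the filter 47.8% were below 0, 3.65% were at least 2-fold lower and the median was 0.01. Around ANXA6, the 5 nearest measured genes on each side had a median difference of -0.27, and 6 of the 10 were below 0. The lowest was SMIM3 at -1.60, named after its value was seen, so ANXA6 at -1.99 lay below all 10. Around ANXA11 the median was -0.02, with 6 of 10 below 0, and the lowest, PRXL2A, was -0.98, as low as ANXA11 itself. Around ANXA4 the median was 0.05, with 2 of 10 below 0 and ANTXR1, an anthrax toxin receptor, the lowest at -1.06. PRXL2A and ANTXR1 were also named after their values were seen. Around ANXA5 the median was 0.15, with 3 of 10 below 0 and values from -3.66 to 1.94. Whether any annexin difference is shared along the chromosome was not tested.

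The 4 S100 genes listed as partners of annexins, a list chosen with earlier results of these data known, were all lower in Panc1/syk-wt. Of these, 2 were at least 2-fold lower, and the median was -1.07. Over all genes past the filter 3.65% were lower to that degree, 47.8% were below 0 and the median was 0.01. S100A10, the partner of ANXA2, read 11.8 in Panc1/syk-wt and 13.1 in Panc1/mock by its brighter probe set, a difference of -1.33. Its second probe set, at 5.77 in Panc1/syk-wt and 7.37 in Panc1/mock, differed by -1.60. The bright ANXA2 probe sets differed by less than 0.1, so the readings for the subunits of this complex were unequal. S100A4, an ANXA2 partner linked to cell motility, read 10.6 in Panc1/syk-wt and 12.4 in Panc1/mock (-1.85). S100A11, which binds the tail of ANXA1, read 10.7 in Panc1/syk-wt and 11.5 in Panc1/mock (-0.82), beside -0.56 for ANXA1. S100A6, a partner of ANXA11, was at -0.40 in 217728_at (12.7 in Panc1/syk-wt and 13.1 in Panc1/mock), beside -0.98 for ANXA11. Its other probe set was under the floor on both arrays.

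Among other direct partners 7 genes were measured past the filter, 6 of them below 0, with 1 at least 2-fold lower and a median of -0.27 (over all genes 47.8% were below 0 and 3.65% at least 2-fold lower). That gene was AHNAK, a giant scaffold that binds the ANXA2 and S100A10 complex. Its brightest probe set read 9.61 in Panc1/syk-wt and 11.4 in Panc1/mock (-1.83), and its others with a value above the floor were at -1.08 and -0.33. The AHNAK probe set at -0.33 read 4.61, under the floor, in Panc1/syk-wt and 4.94 in Panc1/mock. The 2 remaining AHNAK probe sets were under the floor on both arrays. TRPM7, a channel kinase that phosphorylates ANXA1, was at -0.79 by its brightest probe set, with others up to 0.38. Sorcin, SRI, the partner of ANXA7, was at -0.31 (11.1 in Panc1/syk-wt and 11.4 in Panc1/mock), and its dimmer probe set read 4.64, under the floor, in Panc1/syk-wt and 5.81 in Panc1/mock. EGFR, the receptor whose kinase acts on ANXA1, was at -0.27, with 7 probe sets past the filter between -0.51 and 0.54. The direction for TRPM7 and EGFR therefore depends on which probe set is read, while the AHNAK probe sets above the floor on both arrays were lower.

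**Figure D3:**
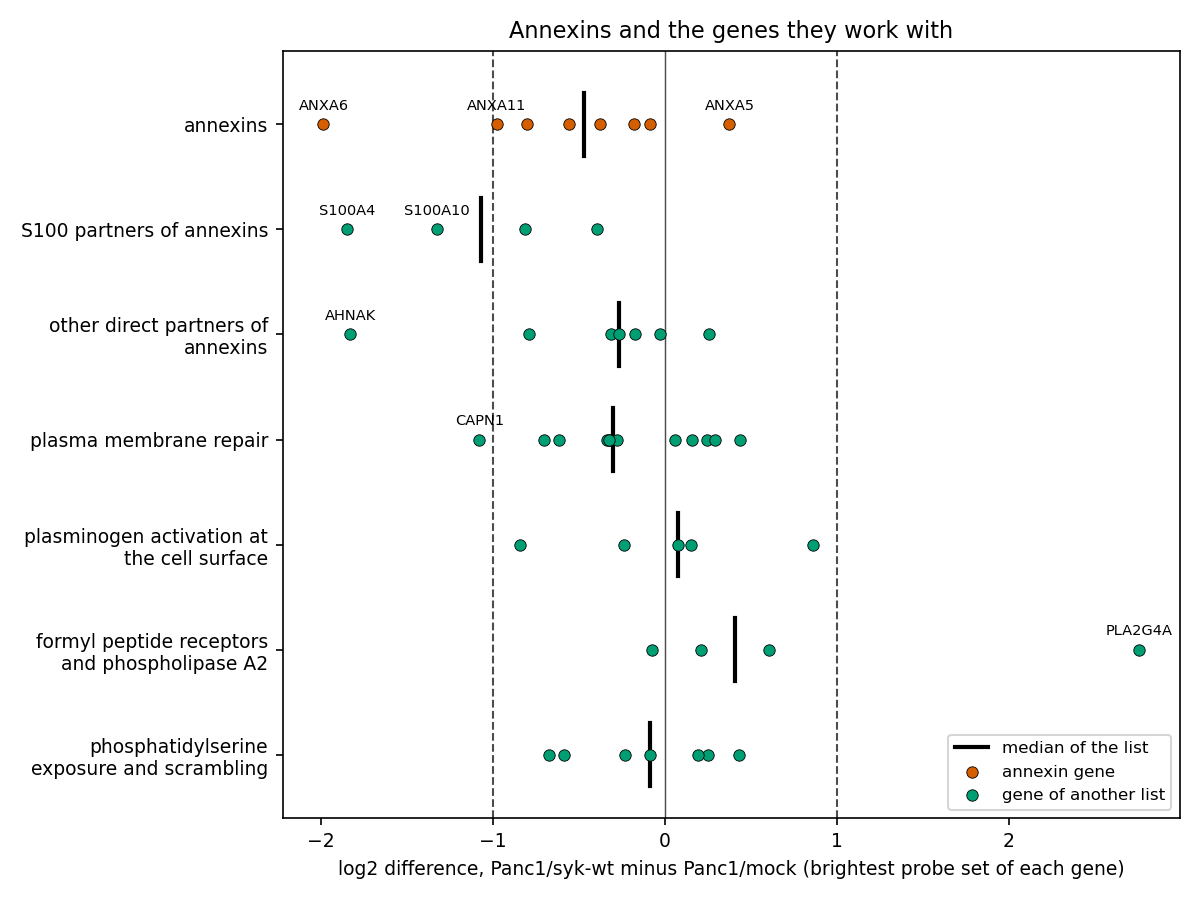
Log2 difference (Panc1/syk-wt minus Panc1/mock) of the brightest probe set of each gene past the filter, for the annexins (orange) and 6 lists of related genes (green), with the list median as a black bar and dashed lines at 2-fold. The S100 partners have a median of -1.07 and all lie left of 0, while PLA2G4A stands at the far right.

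Plasma membrane repair genes went both ways, with 7 of the 12 past the filter below 0, 1 at least 2-fold lower, 0 at least 2-fold higher and a median of -0.30. Over all genes 47.8% were below 0, which is near the share in this list, 3.65% at least 2-fold lower and 3.61% higher by as much. CAPN1, a calpain protease that acts when calcium enters a wounded cell, read 7.04 in Panc1/syk-wt and 8.12 in Panc1/mock (-1.08), though its other probe set differed by -0.08. The caveola proteins EHD2 (-0.70) and CAVIN1 (-0.62) were lower in all 3 of their probe sets each, between -0.70 and -0.57 for EHD2 and between -1.03 and -0.62 for CAVIN1. CHMP4C, a subunit of the ESCRT-III membrane scission complex, was at 0.44 (8.68 in Panc1/syk-wt and 8.24 in Panc1/mock).

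In the plasminogen list 0 of 5 genes past the filter reached 2-fold in either direction, beside 3.65% lower and 3.61% higher over all genes. The list median was 0.08, or -0.06 if probe sets were averaged per gene. That 0.08 is the value of PLG, named after its value was seen (4.49 in Panc1/syk-wt and 4.41 in Panc1/mock). PLG was under the floor on both arrays, and the list median was 0 with the floor. The urokinase receptor PLAUR read 5.85 in Panc1/syk-wt and 6.70 in Panc1/mock (-0.84), and its 3 probe sets ran from -1.05 to -0.20. The plasminogen receptor PLGRKT read 8.01 in Panc1/syk-wt and 7.15 in Panc1/mock (0.86). ENO1, an enolase that also binds plasminogen, was at -0.24 by its brightest probe set, and its others past the filter were at -0.67 and -0.72. Urokinase, PLAU, was at 0.15 with its other probe set at -0.26. S100A10 (-1.33) and PLGRKT, both receptors for plasminogen, thus read in opposite directions.

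The formyl peptide receptors FPR1, FPR2 and FPR3, which bind ANXA1 on leukocytes, were under the floor on both arrays. Of the phospholipase A2 genes, 4 passed the filter, and 2 of these were under the floor on both arrays. Their median of 0.41 comes from those 2 and was 0 with the floor. PLA2G4A and PLA2G4C passed only through their Panc1/syk-wt values, so the 1 gene at least 2-fold higher (3.61% over all genes) is given as a value alone. PLA2G4A, the cytosolic enzyme that releases arachidonic acid and that ANXA1 is known to restrain, read 5.90 in Panc1/syk-wt and 3.15 in Panc1/mock. With the mock value under the floor, it was at least 2.20-fold higher in its 1 probe set. PLA2G4C (4.60 in Panc1/syk-wt and 3.995 in Panc1/mock) and PLA2G2A (4.69 and 4.48) were under the floor on both arrays, and PLA2G6 differed by -0.08.

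Genes that control phosphatidylserine exposure, the lipid bound by ANXA5, showed 0 of 7 members past 2-fold by the brightest probe set, with 4 below 0 and a median of -0.09. Over all genes 3.65% were lower and 3.61% higher by 2-fold or more, and 47.8% were below 0. The list median was -0.42 with probe sets ending in plain _at and 0.05 if only means past the 75th percentile were kept. The list thus has no settled direction. The flippase ATP8B1 was at -0.67 (5.60 in Panc1/syk-wt and 6.27 in Panc1/mock) and its other probe set at -1.65. The calcium-gated scramblase ANO6 was at -0.59 (8.83 in Panc1/syk-wt and 9.41 in Panc1/mock). PLSCR1, an interferon-induced scramblase family member, was at 0.43, and the apoptotic scramblase XKR8 was at 0.25.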

How the data were processed

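RNA of 2 Panc1 populations was measured on 1 Affymetrix array each. The authors deposited 1 log2 intensity per probe set and array, made with RMA per the submitters' processing notes, which name no version or settings. The number of arrays limits the precision. The values run from 2.14 to 14.6, and the array medians were 4.24 (Panc1/syk-wt) and 4.26 (Panc1/mock). Names came from the platform's annotation of the probe sets, with symbols compared by gene ID to RefSeq (GRCh38.p14). Of 54675 probe sets, 41097 had 1 symbol, 1801 had several and were left out, and 11777 were not named here. Upstream sequences come from RefSeq (GRCh38.p14), where all 10 genes matched.

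The difference Panc1/syk-wt minus Panc1/mock was computed per probe set with Python 3.11.15, pandas 2.3.3 and statsmodels 0.14.6. A gene took its brightest probe set by mean among those past the filter, and 2-fold was the threshold. The calculation was checked on simulated data. The members, the 6 lists of related genes and the floor were chosen with earlier results of these data known. All annexins are named with every probe set, and up to 4 genes per list with the largest absolute difference among those past the filter, plus SYK. Of 54 listed genes, 46 were measured by a probe set with 1 symbol, 39 passed the filter, and 8 were not analysed here. The 10 alternatives were 3 other normalizations, 2 other filters, the floor, 3 ways to summarise a gene, and a 1.5-fold threshold.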

Additional observations from a re-analysis of the deposited data

How the results depend on the processing

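With 1 array per population, no alternative leaves out a sample, and no paired analysis was possible because each group holds 1 array. Probe sequences were not used here, so cross-hybridisation was not tested, and dim probe sets limit ANXA3, ANXA9 and ANXA10. Under the alternatives ANXA6 ran from -1.99 to -1.97 (it had no value under the stricter filter or with plain _at probe sets), ANXA11 from -1.11 to -0.96, ANXA4 from -0.91 to -0.78, ANXA1 from -0.59 to -0.54, ANXA7 from -0.40 to -0.23, ANXA2 from -0.10 to -0.07 (no value with plain _at probe sets), ANXA9 from -0.18 to 0 and ANXA5 from 0.35 to 0.39. Of 287 comparisons with an alternative, 0 reversed a called value and 24 moved. Counts of genes or probe sets have no sign to reverse. Small list medians that crossed 0 were not counted as moved. The plasminogen median went from 0.08 to -0.06 with the mean over probe sets. The phosphatidylserine median went from -0.09 to 0.05 with the stricter filter.

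The count of annexin genes at least 2-fold lower was 0 when the filter stood at the 75th percentile. It was 2 for the mean or the median over probe sets, where ANXA11 joins, and with plain _at probe sets the 1 such gene was ANXA11 in place of ANXA6. That ANXA11 value, also the -1.11 end of its range, is from 228727_at, under the floor in Panc1/syk-wt and 1.97-fold lower with the floor. With a 1.5-fold threshold the count of annexin genes was 3. Annexin probe sets at least 2-fold lower numbered 1 under that stricter filter and 6 at 1.5-fold. Among S100 partners, 1 was lower with probe sets ending in plain _at. Other direct partners had 0 lower with the mean or median over probe sets, and 2 with plain _at probe sets or at 1.5-fold. Membrane repair had 0 lower with the mean, the median or plain _at probe sets, and 3 at 1.5-fold. At 1.5-fold the plasminogen list had 1 lower and 1 higher, the phospholipase list 2 higher and the phosphatidylserine list 2 lower. Over all genes 10.5% were lower and 12.2% higher at that threshold. The 2 phospholipase genes, PLA2G4A and PLA2G4C, passed the filter only through their Panc1/syk-wt values, and PLA2G4C was under the floor on both arrays. The phosphatidylserine list had 1 lower with the mean, the median or plain _at probe sets. The phospholipase median was 0 with the floor and 2.76 with plain _at probe sets, where 1 gene was left.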
